A study of Drosophila melanogaster with 36 samples.

Results

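To ask how the head transcriptome of flies kept in the heat differs between day and night, the light phase was compared with the dark phase at 29°C. The comparison used the 29°C columns of a table of 3′ RNA-seq values, in which reads come from the 3′ ends of polyadenylated transcripts. The columns at Zeitgeber time (ZT, hours after lights on) 3, 7 and 11 formed the light phase, and those at ZT15, ZT19 and ZT23 formed the dark phase. These were 6 of the 18 columns, and they stand for 12 of the 36 labelled samples.

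All flies were of Canton-S, a wild-type strain of Drosophila melanogaster, and RNA was taken from whole heads. Before collection they lived under a daily light cycle at 18, 25 or 29°C for some days. Sex, age and the number of heads per sample were not given in the sources used here. The labels describe 2 libraries for each temperature and time point, but the table holds 1 column for each. Replicate error at a time point could not be had, so each phase was represented by its 3 columns. The p-values come from a fit of all columns as groups of temperature and phase. They measure the spread between columns within a group, pooled over 18, 25 and 29°C, and this spread includes any change within a phase. The column headed ZT19 carries the time zt18 in the labels.

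The light phase is when photoreceptors are driven by light and when the light-sensitive protein CRY leads to degradation of TIM. In the dark phase PER and TIM accumulate and repress the transcription that CLK and CYC drive. A fly head holds photoreceptors, brain neurons and glia, and also fat body, cuticle-forming cells, sensory support cells and muscles that move the mouthparts and antennae. Respiratory chain complexes pass electrons from food to oxygen in mitochondria, and ATP synthase uses the resulting proton gradient to make ATP. Most subunits are encoded in the nucleus and a few on the mitochondrial chromosome. In bulk heads, fewer cells of a type and less RNA per cell cannot be told apart.

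Depth moved with the phase at 29°C. Light columns held 978888 to 1245792 reads on genes and dark columns 2341140 to 2750250, so that every dark column was deeper than every light one. At 25°C the ranges overlapped, with 1241552 to 1953917 reads in the light and 1398361 to 2381033 in the dark. At 18°C they overlapped too, with 1428343 to 2408859 reads in the light and 736538 to 1884754 in the dark. Some results are therefore also given after the 29°C columns were thinned to 978888 reads, an alternative added after the depths were seen. Thinning evens the number of reads only, so phase and depth at 29°C cannot be told apart. Photoreceptor identity was clear in every column, with all 7 markers detected and a summed level between 37625 and 48690 normalised reads. The neuronal marker elav had between 0 and 3.10 normalised reads, at or near the 2.10 to 4.94 that 3 reads are worth, whereas nSyb and Syt1, which act in transmitter release, were present throughout.

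The ZT19 column stood apart from the other 5. Its summed level of 26 testis markers was 317 normalised reads, against 4.54 to 17.0 elsewhere at 29°C, and that of 23 midgut markers was 2572 against 13.3 to 37.6. Ejaculatory duct and bulb markers summed to 503 normalised reads against 0 to 3.50. The sex peptide gene SP, expressed in male accessory glands, was at 92.2 normalised reads at ZT19 and at 0 in the other columns. None of the testis, midgut or ejaculatory markers was abundant enough over the columns to be tested. Reads of male abdominal tissue and gut were thus present in 1 dark column, so the main differences are given with and without it.

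**Figure D1:**
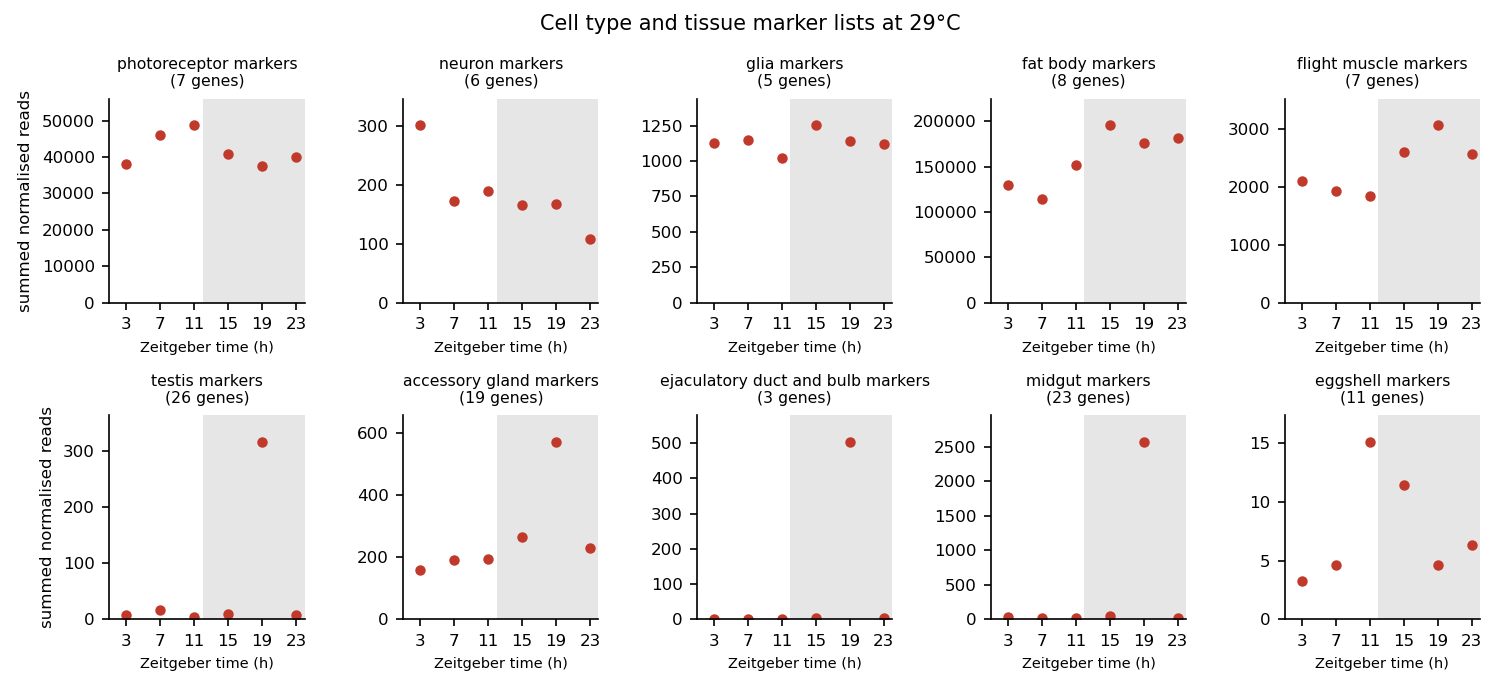
Summed normalised reads of cell type and tissue marker lists in the 6 columns at 29°C, against Zeitgeber time, with the dark phase shaded and 1 point per column. Testis, ejaculatory and midgut markers stand out at ZT19 (317, 503 and 2572 normalised reads). The sums of fat body and of flight muscle markers are higher in every dark column than in every light column. Among single tested members this holds for 2 of 8 fat body and 2 of 5 flight muscle markers.

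With all 6 columns, 82 of 7892 genes differed between the phases in limma at an adjusted p under 0.05. Of these, 15 genes were higher in the light, 0.190% of the genes tested, and 67 were higher in the dark, 0.849%. The light and dark values of all 82 did not overlap. Over all tested genes, every light value exceeded every dark value in 7.67%, and every dark value exceeded every light value in 11.5%. Changes were modest: the median log2 difference was 0.84 among genes higher in the light and -0.73 among those higher in the dark, and 6 and 16 of them passed 2-fold. Genes higher in the light were most often highest at ZT7, with 10 of 15. Genes higher in the dark were highest at ZT15 in 28 cases, at ZT19 in 25 and at ZT23 in 14.

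Without the ZT19 column, 9 of 8104 genes passed. Both pAbp and CG12990 were higher in the light, 0.0247% of the genes tested, and CG40485, CG10553, COX7AL2, SERCA, SdhB, Obp19d and TpnC25D were higher in the dark, 0.0864%. All 9 were among the 82, and all 82 kept their direction with an unadjusted p under 0.05. Among the others the lowest adjusted p without ZT19 was 0.051, for CG13833 and CG4000. The balance of the directions depended on the scaling: 35 genes were higher in the light and 25 in the dark when columns were scaled to library size, 23 and 51 with TMM scaling, and 23 and 68 after thinning. With library size the median of all genes moved from -0.06 to 0.05. No called gene changed its sign under any alternative. The count itself depended on single columns: it was 83 without ZT3, 7 without ZT7, 50 without ZT11, 19 without ZT15 and 14 without ZT23. The plot of the difference against expression level shows the called genes around the tested genes.

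**Figure D2:**
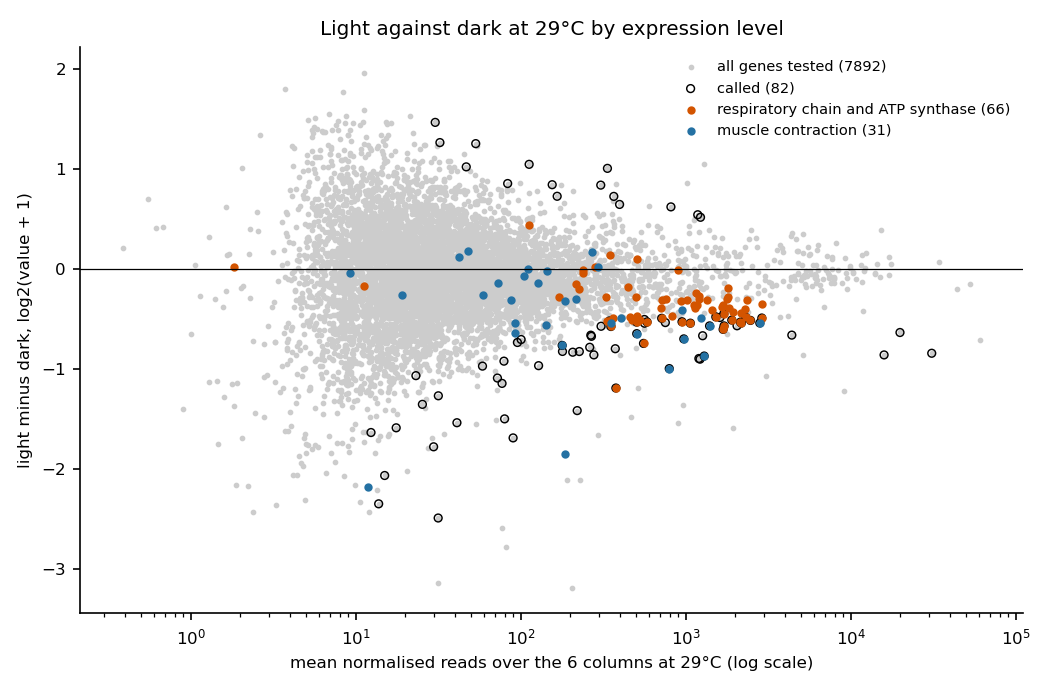
Log2 difference, light minus dark at 29°C on the log2(value + 1) scale, against the mean normalised reads over the 6 columns on a log axis, for 7892 genes. The 82 called genes are circled, and the 66 respiratory chain and ATP synthase genes (orange) lie mostly below 0, with a median of -0.39.

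The list with the most genes higher in the dark held the machinery of oxidative phosphorylation. Of 85 genes chosen by the symbols of respiratory chain and ATP synthase genes, 66 were tested, and 19 were higher in the dark, against 0.849% of all genes, and none in the light. In 53 of the 66 every dark value exceeded every light value, against 11.5% of all genes. The median log2 difference was -0.39, against -0.06 over all genes tested. Without ZT19 the median was -0.40. SdhB and COX7AL2 then passed, and in 55 of 66 genes both dark values exceeded every light value, against 15.8% of all genes. In the opposite direction, every light value exceeded both dark values in 1 of them, against 10.6%.

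All complexes had negative medians, and the counts that follow stand against the same 0.849% of all genes called higher in the dark. NADH dehydrogenase (complex I) had 33 tested genes with a median of -0.36, and 6 were higher in the dark, namely ND-49, ND-23, ND-30, ND-MWFE, ND-20 and ND-24. Succinate dehydrogenase (complex II) had 4 tested genes with a median of -0.34, and SdhB passed. Complex III had 8 tested genes with a median of -0.44, and UQCR-6.4, RFeSP, UQCR-C2 and UQCR-Q passed. Cytochrome c oxidase (complex IV) had 10 tested genes with a median of -0.41, and COX7AL2, COX7C and COX4 passed. ATP synthase had 11 tested genes with a median of -0.43, and ATPsynC, ATPsyndelta, ATPsynB, ATPsyngamma and ATPsynO passed. Without ZT19 the medians of complexes I to IV were -0.39, -0.32, -0.43 and -0.44, and that of ATP synthase was -0.49. Within this list the members beyond the 4 with the smallest p were named after their values were seen.

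SdhB (CG3283, chromosome 2R, 2695116 to 2696678) encodes the iron-sulphur subunit of succinate dehydrogenase, which links the citric acid cycle to the respiratory chain. Its level was 415, 406 and 425 normalised reads at ZT3, ZT7 and ZT11, and 680, 730 and 678 at ZT15, ZT19 and ZT23. The light values were almost flat and every dark value was well above them. The means were 415 ± 9.47 and 696 ± 29.6 (SD, n = 3 time points), a 1.68-fold difference. The log2 difference was -0.74 ± 0.12 (SE, adjusted p = 0.0018, limma), and -0.71 without ZT19 (adjusted p = 0.019). The gene overlaps CG15237 in the table, and since the use of strand is not stated their reads may not be fully separated.

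COX7AL2 (CG34172, chromosome 2L, 2192525 to 2193010), a subunit of the cytochrome c oxidase 7A family by its name, had the largest difference of the list. Its level was 316, 206 and 182 normalised reads in the light and 547, 516 and 501 in the dark. Light values were lowest at ZT11, just before lights off, and the dark values were close to each other. The dark mean was 2.22-fold the light mean, with a log2 difference of -1.19 ± 0.19 (adjusted p = 0.0019), and -1.20 without ZT19 (adjusted p = 0.019).

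ATPsynC (CG1746, chromosome 3R, 27041864 to 27045357) encodes the c subunit that forms the rotating membrane ring of ATP synthase. Its level was 1426, 1362 and 1236 normalised reads in the light and 2166, 1977 and 1966 in the dark. The 1.52-fold difference was -0.60 ± 0.12 on the log2 scale (adjusted p = 0.016), and -0.62 without ZT19, where it no longer passed (adjusted p = 0.062). COX7C, another subunit of complex IV, was at 1660, 1841 and 1827 normalised reads in the light and at 2581, 2500 and 2659 in the dark. Its log2 difference was -0.54 ± 0.11 (adjusted p = 0.018), and -0.56 without ZT19 (adjusted p = 0.062). Both genes thus kept the size of their difference and lost the call.

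The UQCR-6.4 gene of complex III was at 1509, 1328 and 1295 normalised reads in the light and 2213, 1916 and 1996 in the dark. Its log2 difference was -0.57 ± 0.12 (adjusted p = 0.018), and -0.61 without ZT19 (adjusted p = 0.062). The alpha subunit of ATP synthase is encoded by blw (bellwether), which the symbol pattern of the list did not catch. It was at 1888, 1482 and 1599 normalised reads in the light and 2626, 2273 and 2436 in the dark, with a log2 difference of -0.57 (adjusted p = 0.019). Likewise ox, a small subunit of complex III, was higher in the dark, with a log2 difference of -0.48 (adjusted p = 0.020). Without ZT19 the differences of blw and ox were -0.62 and -0.49. Both belong to a list of 8 subunits with other symbols, added after seeing the data, of which 7 were tested. They were the 2 called members, against 0.849% of all genes called higher in the dark. The list median was -0.18 (-0.23 without ZT19). In 4 of the 7 every dark value exceeded every light value, against 11.5% of all genes. In 2 of them every light value exceeded every dark value, against 7.67%.

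Among the 13 respiratory genes whose phases overlapped or ran the other way, ATPsynG (subunit g of ATP synthase) was at 145, 138 and 109 normalised reads in the light and 104, 97.6 and 86.0 in the dark. It was the 1 gene of the list with all light values above all dark values, and it did not pass (log2 difference 0.44, adjusted p = 0.27). The complex I gene ND-SGDH was level across the day, between 855 and 933 normalised reads. The exceptions were therefore few and did not gather in 1 complex, with 6 in complex I, 2 each in complexes II, III and IV, and 1 in ATP synthase.

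The group was highest at ZT15, the first dark sample. Relative to each gene's mean over the 6 columns at 29°C, the median of the 66 genes was -0.17, -0.18 and -0.21 on the log2 scale at ZT3, ZT7 and ZT11, and 0.25, 0.15 and 0.19 at ZT15, ZT19 and ZT23. Of the 66, 39 were highest at ZT15 and 30 were lowest at ZT11. The step thus fell between the last light and the first dark column, and ZT19 was the lowest of the dark columns. Summed over the 85 listed genes, the level was between 60486 and 61643 normalised reads in the light and between 78641 and 82985 in the dark.

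**Figure D3:**
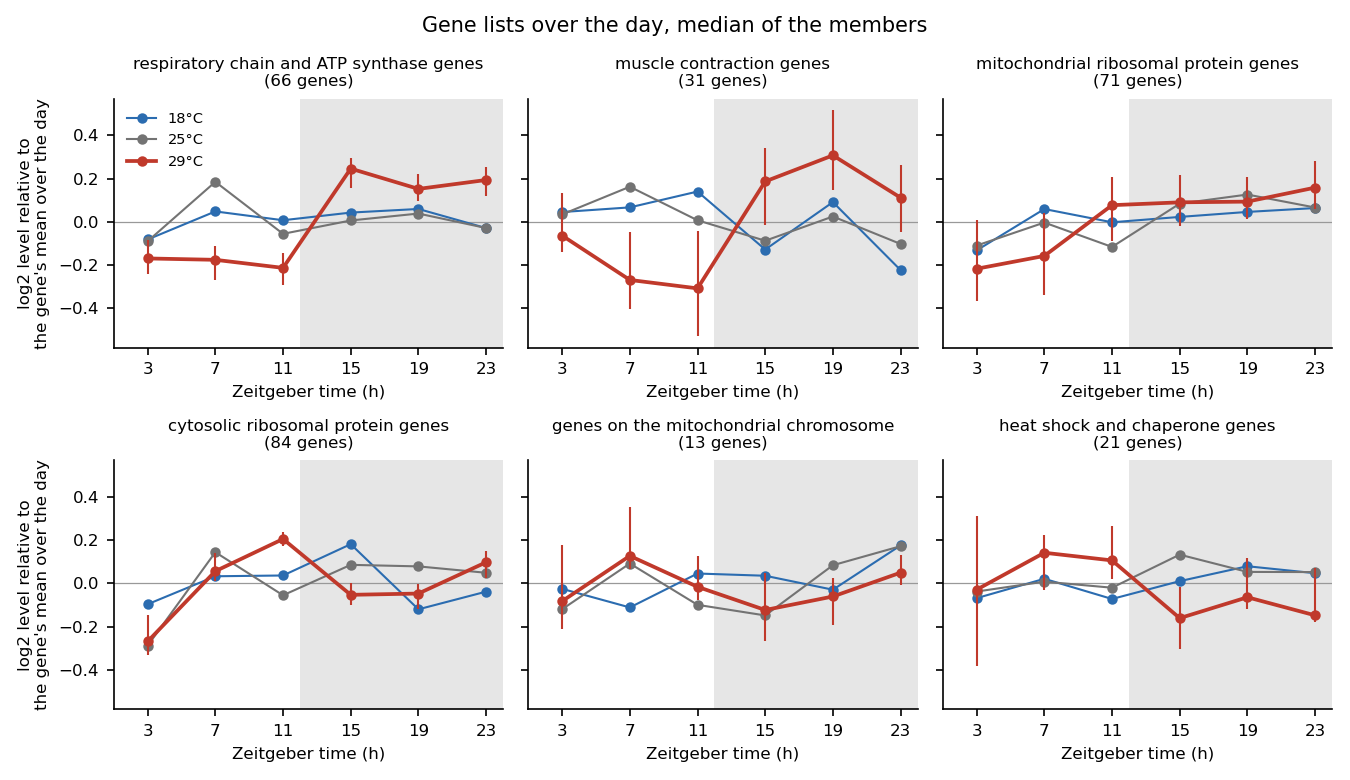
Median log2 level of the members of 6 gene lists relative to each gene's own mean over the day at 18°C (blue), 25°C (grey) and 29°C (red), against Zeitgeber time, with the dark phase shaded; vertical lines at 29°C span the interquartile range of the members. Respiratory chain and ATP synthase genes at 29°C lie below 0 at ZT3, ZT7 and ZT11 (-0.17, -0.18 and -0.21) and above 0 at ZT15, ZT19 and ZT23 (0.25, 0.15 and 0.19).

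The same list had a median light minus dark difference of 0.01 at 25°C and -0.02 at 18°C. None of its genes passed at either temperature, and neither did any other of the 7892 genes tested. At 25°C its summed level ranged from 67201 to 81863 normalised reads in the light and from 69687 to 74248 in the dark. Relative to each gene's mean over the 25°C columns, the list median was -0.09, 0.19 and -0.06 at ZT3, ZT7 and ZT11. At ZT15, ZT19 and ZT23 it was 0.01, 0.04 and -0.03. The 25°C ZT7 column also had raised midgut and flight muscle markers, and its part in the 25°C median was not tested. The difference between temperatures was tested gene by gene in the same model. No gene of the list passed against 25°C or 18°C, so a change of the phase difference with temperature was not shown for any single subunit. Under other settings the 29°C median of the list ranged from -0.40 to -0.27. It was -0.34 with TMM scaling (12 genes higher in the dark), -0.27 with library size scaling (7 genes) and -0.39 after thinning (18 genes).

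Other mitochondrial genes were split. The 13 protein-coding genes of the mitochondrial chromosome, which encode further subunits of the same complexes, had a median of 0.05 with and without ZT19, and none passed. They took between 1.18% and 1.36% of the reads in each column. The 71 mitochondrial ribosomal protein genes had a median of -0.25 (-0.26 without ZT19), with none called, and in 17 of them every dark value exceeded every light value, against 11.5% of all genes. For the citric acid cycle and pyruvate dehydrogenase, a list added after seeing the data, 18 genes were tested with a median of -0.25 (-0.27 without ZT19) and 9 had all dark values above all light values, against the same 11.5%. In this list mAcon1, mitochondrial aconitase, passed beside SdhB, at 591, 591 and 664 normalised reads in the light and 810, 957 and 911 in the dark (log2 difference -0.53, adjusted p = 0.028, and -0.48 with 0.15 without ZT19). Also higher in the dark were Mpcp1, the mitochondrial phosphate carrier (log2 difference -0.80, and -0.71 without ZT19), and QIL1, a part of the complex that shapes mitochondrial cristae (-0.50, and -0.47 without ZT19). By contrast, 13 genes of glycolysis, which breaks down glucose in the cytosol, had a median of -0.01 (-0.03 without ZT19) with none called.

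Genes of muscle contraction were the next group higher in the dark. Of 31 tested genes of a list added after seeing the data, 7 passed, namely SERCA, Tm1, TpnC25D, up, Mhc, Argk1 and Zasp52, against 0.849% of all genes, and none was higher in the light. In 14 genes every dark value exceeded every light value, against 11.5% of all genes. The median was -0.41, and -0.38 without ZT19, when SERCA and TpnC25D passed. At 25°C and 18°C the medians were 0.09 and 0.14. The 25°C value includes the ZT7 column, where flight muscle markers summed to 7610 normalised reads and midgut markers to 8794, and its part in this median was not tested.

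SERCA (CG3725, chromosome 2R, 19814479 to 19821185) encodes the pump that returns calcium to the sarcoplasmic reticulum. It was at 685, 553 and 383 normalised reads in the light and at 1028, 1169 and 959 in the dark. Light values were lowest at ZT11, and the groups were far apart. The dark mean was 1.95-fold the light mean, with a log2 difference of -0.995 ± 0.15 (adjusted p = 0.0018), and -0.92 without ZT19 (adjusted p = 0.019).

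Tropomyosin 1 (Tm1) covers the myosin sites of actin filaments. Its level was 1158, 815 and 797 normalised reads in the light and 1602, 1871 and 1534 in the dark, a log2 difference of -0.87 ± 0.15 (adjusted p = 0.0051), and -0.78 without ZT19 (adjusted p = 0.052). The troponin C gene TpnC25D was at 891, 738 and 614 normalised reads in the light and 1279, 1081 and 1249 in the dark. Its log2 difference was -0.70 ± 0.14 (adjusted p = 0.015), and -0.77 without ZT19 (adjusted p = 0.026). For both genes the phases were clearly separated. TpnC25D lies within tkv in the table, so that reads of the 2 genes may be mixed.

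Myosin heavy chain (Mhc) was at 1156, 1121 and 1098 normalised reads in the light and at 1600, 1807 and 1605 in the dark. The log2 difference was -0.57 ± 0.12 (adjusted p = 0.020), and -0.51 without ZT19 (adjusted p = 0.12). The up gene, which encodes troponin T, was at 451, 356 and 374 normalised reads in the light and 567, 722 and 564 in the dark, with ZT19 the highest. Its log2 difference was -0.65 ± 0.13 (adjusted p = 0.018), and -0.53 without ZT19 (adjusted p = 0.12). Both were highest in the ZT19 column.

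The ZT19 column took part in this pattern. Of the 31 tested muscle genes, 16 were highest at ZT19. The flight muscle actin Act88F, used in the thorax, was at 41.8 normalised reads at ZT19 and between 0 and 13.1 elsewhere, and fln and TpnC4, which are also specific to flight muscle, were at 13.9 and 9.30 at ZT19 and at or below 1.55 elsewhere. The 7 flight muscle markers summed to 1847 to 2105 normalised reads in the light and 2580 to 3068 in the dark, with the highest sum at ZT19. Among them wupA, troponin I, was between 247 and 341 in the light and between 274 and 314 in the dark, so the markers did not all move together. The part of tissue content in the muscle result was not tested. The called genes Mhc and up are themselves among these markers.

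Summed over the 33 listed muscle genes, the light columns at 29°C held 9862 to 11657 normalised reads and the dark columns 14970 to 16978. At 25°C the range was 16496 to 21490 in the light and 15700 to 17086 in the dark, and at 18°C it was 17703 to 19054 and 14716 to 19052. The 29°C light columns were the lowest of the 18. The median over this list is set beside those of the other lists in the plot of list medians.

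**Figure D4:**
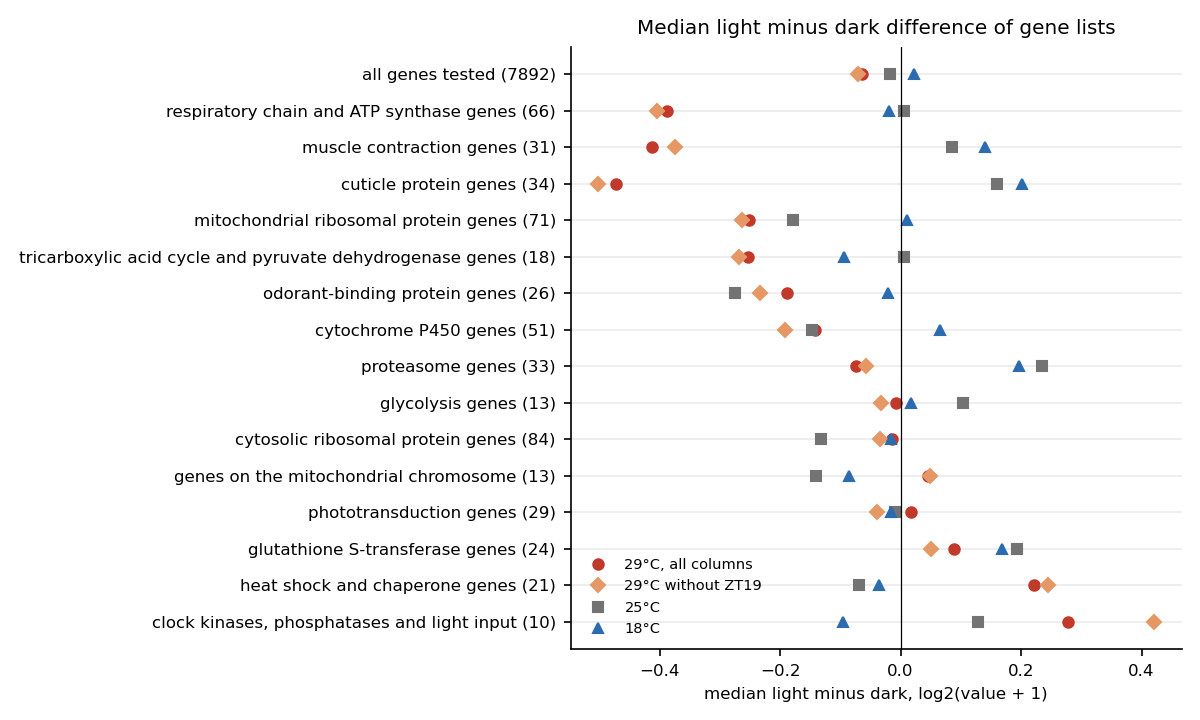
Median log2 difference, light minus dark on the log2(value + 1) scale, of gene lists at 29°C with all 6 columns (red), at 29°C without ZT19 (orange), at 25°C (grey) and at 18°C (blue); the number of tested genes stands in brackets. Respiratory chain and muscle lists lie at -0.39 and -0.41 at 29°C and between -0.02 and 0.14 at the other temperatures, while the median of all genes tested is -0.06 at 29°C.

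Odorant-binding proteins carry odours through the lymph of sensory hairs, and 3 of 26 tested genes passed, all higher in the dark, against 0.849% of all genes, with a list median of -0.19 (-0.23 without ZT19, when Obp19d alone passed). Obp19d (CG1668) was at 3319, 3410 and 3500 normalised reads in the light and at 5189, 5098 and 5912 in the dark. The dark mean was 1.58-fold the light mean, a log2 difference of -0.66 ± 0.12 (adjusted p = 0.0059), and -0.70 without ZT19 (adjusted p = 0.020). Obp56d was at 791, 733 and 1010 normalised reads in the light and 1650, 1684 and 1355 in the dark (log2 difference -0.89 ± 0.17, adjusted p = 0.0096, and 0.062 without ZT19). Obp49a, which acts in taste hairs, had a log2 difference of -0.57 (adjusted p = 0.031, and -0.53 without ZT19). For this family the medians were -0.27 at 25°C and -0.02 at 18°C.

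The corneal lens protein gene retinin was among the most abundant transcripts. It was at 15136, 15425 and 16181 normalised reads in the light and 27524, 22367 and 22938 in the dark, with a log2 difference of -0.63 ± 0.13 (adjusted p = 0.018), and -0.69 without ZT19 (adjusted p = 0.061). CG17108, of no stated role here, was at 13892, 10018 and 10196 normalised reads in the light and 17484, 20001 and 24190 in the dark (log2 difference -0.86 ± 0.17, adjusted p = 0.016, and -0.87 without ZT19). Cuticle protein genes showed a list median of -0.47 over 34 tested genes, with 31 negative (-0.50 without ZT19), but none passed. With all columns, 3 had all dark values above all light values, a share below the 11.5% of all genes. Without ZT19, 10 of 38 tested genes had both dark values above every light value, a share above the 15.8% of all genes. In 1 of the 38 every light value exceeded both dark values, against 10.6%.

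Yolk protein genes are expressed in the female fat body. Yp3 was at 22866, 19307 and 24672 normalised reads in the light and at 42690, 37114 and 39578 in the dark, a log2 difference of -0.84 ± 0.21 (adjusted p = 0.039), and -0.89 without ZT19 (adjusted p = 0.11). Yp2 was at 48942, 39411 and 51556 normalised reads in the light and 83227, 72340 and 72282 in the dark, and did not pass (log2 difference -0.71, adjusted p = 0.061, and -0.74 with 0.15 without ZT19). For Yp1 the phases overlapped, with 43049 to 60381 in the light and 54009 to 56586 in the dark. The 8 fat body markers summed to 114369 to 151828 normalised reads in the light and 175835 to 195290 in the dark. Of the 8, 6 had negative differences, and Fbp1 and Fbp2, which mark larval fat body, were at or below 8.24 normalised reads. The part of fat body content in the Yp3 result was not tested. At 25°C the log2 difference of Yp3 was -0.54 and at 18°C -0.18, neither called.

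CG40485 and CG10553 fell outside these lists. CG40485 (chromosome X, 22363480 to 22364196), an open reading frame without a role given in the files, had the smallest p. It was at 47.8, 34.1 and 40.8 normalised reads in the light and at 86.6, 123 and 148 in the dark. Its dark values were highest at ZT23. The dark mean was 2.91-fold the light mean, a log2 difference of -1.50 ± 0.20 (adjusted p = 0.00050), and -1.46 without ZT19 (adjusted p = 0.0091). CG10553 was at 9.88, 6.20 and 9.08 normalised reads in the light and at 28.6, 24.01 and 28.0 in the dark (log2 difference -1.59 ± 0.25, adjusted p = 0.0018, and 0.017 without ZT19). The light values of CG10553 rest on 4 to 6 reads each.

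Genes higher in the light were fewer. CG12990 (chromosome X, 17563241 to 17565921) was at 80.7, 63.5 and 83.2 normalised reads in the light and at 33.5, 33.3 and 26.6 in the dark. The light mean was 2.44-fold the dark mean, with a log2 difference of 1.26 ± 0.22 (adjusted p = 0.0051), and 1.31 without ZT19 (adjusted p = 0.020). It overlaps beta-Spec in the table, and its reads may include those of that gene. The call held under all 18 alternatives with all columns.

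The poly(A)-binding protein gene pAbp (CG5119, chromosome 2R, 14028242 to 14033740) coats the tails of messenger RNAs through its product and takes part in their translation and stability. Its level was 423, 507 and 411 normalised reads in the light and 243, 263 and 169 in the dark. All light values exceeded all dark values, with a 1.99-fold difference of the means. The log2 difference was 1.01 ± 0.19 (adjusted p = 0.0091), and 1.13 without ZT19 (adjusted p = 0.019). PAN3, a subunit of a deadenylase that shortens such tails and is recruited by this protein, was at 56.0, 49.6 and 56.0 normalised reads in the light and at 24.5, 42.6 and 18.2 in the dark. It did not pass (log2 difference 0.98, adjusted p = 0.14, and 1.31 with 0.094 without ZT19).

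Of 84 tested cytosolic ribosomal protein genes, 4 were higher in the light, against 0.190% of all genes, and none in the dark. RpL37-1 was at 351, 436 and 391.7 normalised reads in the light and at 229, 185 and 245 in the dark (log2 difference 0.84 ± 0.15, adjusted p = 0.0091, and 0.72 with 0.082 without ZT19). RpL28 was at 982, 1007 and 973 normalised reads in the light and at 677, 572 and 680 in the dark (0.62 ± 0.14, adjusted p = 0.020, and 0.54 with 0.14 without ZT19). RpL27 was at 206, 219 and 200 normalised reads in the light and at 117, 129 and 129 in the dark (0.73 ± 0.17, adjusted p = 0.035, and 0.75 with 0.11 without ZT19). The group as a whole had a median of -0.01 (-0.03 without ZT19), against -0.06 (-0.07 without ZT19) over all genes tested. In 10 of 84 genes all light values were above all dark values, against 7.67% of all genes. In 1 gene all dark values were above all light values, against 11.5%. Without ZT19 these counts were again 10 and 1, against 10.6% and 15.8%. With library size scaling the list median was 0.10, against 0.05 over all genes, and 8 of its genes were higher in the light. Relative to the mean over the day the list was lowest at ZT3 (-0.27) and highest at ZT11 (0.21), both in the light. Without ZT19 none of these genes passed. RpL28 overlaps nSMase in the table, and ribosomal protein genes with near-identical copies, such as RpL37-1, can share reads with them.

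In phototransduction, norpA, the phospholipase C of the photoreceptor, was at 408, 499 and 460 normalised reads in the light and at 336, 289 and 212 in the dark. The log2 difference was 0.73 ± 0.17 (adjusted p = 0.033), and 0.77 without ZT19, where it did not pass (adjusted p = 0.10). It was the 1 called gene of 29 tested in that list, whose median was 0.02 (-0.04 without ZT19). The major rhodopsin ninaE was at 14187, 18832 and 19307 normalised reads in the light and 14161, 13123 and 12274 in the dark (0.39, adjusted p = 0.21, and 0.39 without ZT19). Arr2, the main arrestin, overlapped between phases (-0.06, adjusted p = 0.93, and -0.11 without ZT19). The photoreceptor markers summed to 38028 to 48690 in the light and 37625 to 40907 in the dark.

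Frq1, a neuronal calcium sensor, was at 160, 169 and 126 normalised reads in the light and at 98.0, 64.3 and 59.4 in the dark (log2 difference 1.05 ± 0.23, adjusted p = 0.020). Calmodulin (Cam), named after its values were seen, was at 1580, 1395 and 1237 normalised reads in the light and at 1138, 921 and 838 in the dark (0.54, adjusted p = 0.050). Atf-2, a transcription factor of stress signalling, was at 122, 110 and 92.3 normalised reads in the light and at 55.5, 59.6 and 61.5 in the dark (0.86 ± 0.18, adjusted p = 0.019). Without ZT19 the log2 differences of Frq1, Cam and Atf-2 were 0.97, 0.52 and 0.87. The 6 neuron markers ran the same way as Frq1, with a median of 0.51 (0.59 without ZT19), 5 of 6 positive and none called. Their summed level was 174 to 301 normalised reads in the light and 108 to 168 in the dark, and the part of neuronal content in the Frq1 result was not tested.

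The light phase also had higher levels of CG14186, at 60.9, 38.7 and 36.3 normalised reads against 13.1, 17.8 and 15.4 in the dark (log2 difference 1.47 ± 0.31, adjusted p = 0.019). At 25°C CG14186 had a difference of similar size, 1.36. The RNA helicase gene mahe was at 39.5, 65.1 and 34.8 in the light and at 18.0, 23.2 and 13.99 in the dark (1.27 ± 0.29, adjusted p = 0.025). CG9752 and clos(CG12928) passed too, with log2 differences of 1.02 and 0.84, but they overlap the ribosomal protein genes RpL29 and RpL31 in the table. Without ZT19 the differences of CG14186, mahe, CG9752 and clos(CG12928) were 1.57, 1.44, 1.02 and 0.77. In all, 15 of the 82 called genes overlapped another gene there.

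**Figure D5:**
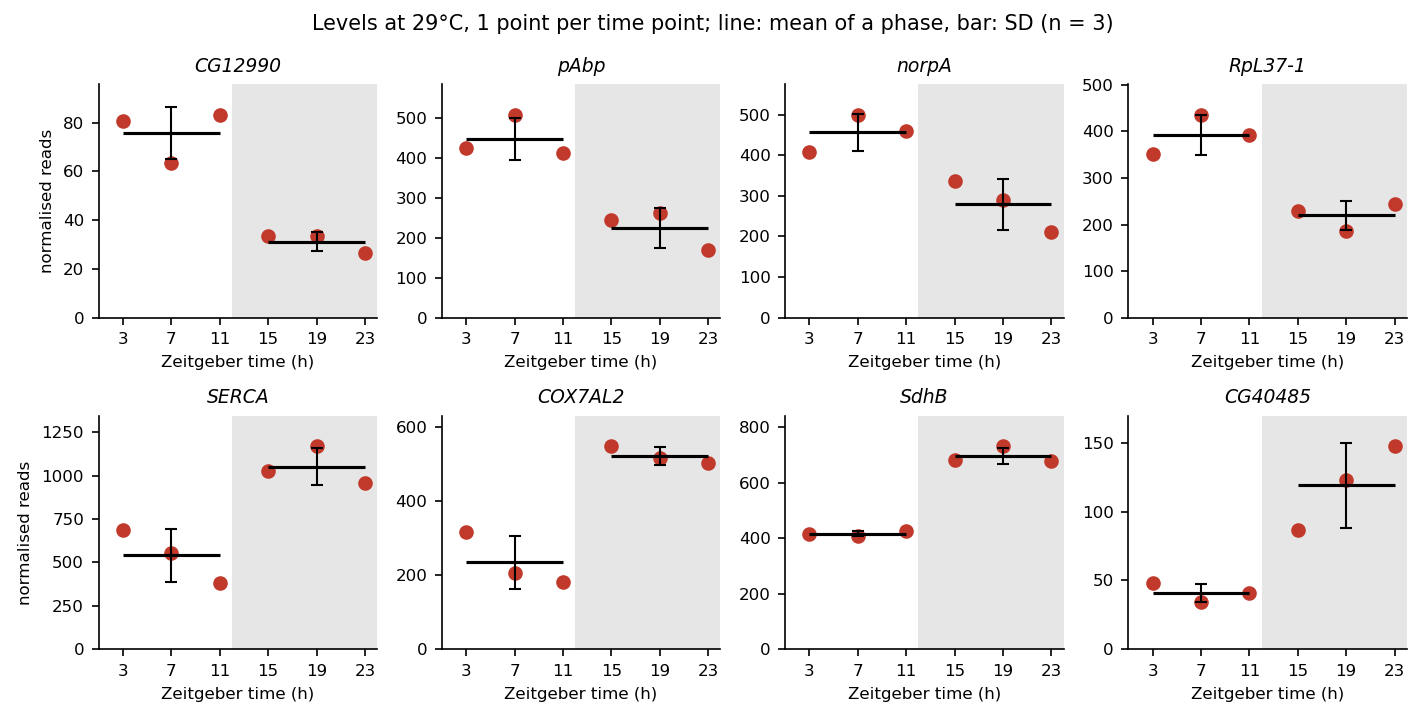
Normalised reads of 8 genes at 29°C against Zeitgeber time, 1 point per column with the dark phase shaded; lines are the means of a phase and bars the SD over its 3 time points. The 4 upper genes are higher in the light (CG12990 at 80.7, 63.5 and 83.2 against 33.5, 33.3 and 26.6) and the 4 lower ones higher in the dark (SERCA at 685, 553 and 383 against 1028, 1169 and 959).

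None of the 8 core clock genes passed, and the levels of several of them turned within a phase. The tim transcript, which encodes the partner of PER, was at 75.8, 49.6 and 198 normalised reads at ZT3, ZT7 and ZT11 and at 180, 177 and 86.7 at ZT15, ZT19 and ZT23. Levels were high from ZT11 to ZT19 and low at ZT7, so the phases overlapped (log2 difference -0.62 ± 0.54, adjusted p = 0.74). The vri gene, a repressor of Clk, was at 21.4, 32.5 and 83.2 in the light and 86.6, 57.3 and 24.5 in the dark (-0.35 ± 0.68). Its transcript was thus high on both sides of lights off. Likewise per was at 4.9, 10.8 and 22.7 in the light and 16.3, 7.7 and 5.6 in the dark (0.25 ± 0.64). These per values rest on 3 to 20 reads each. For per, vri, Pdp1 and tim the sign of the difference turned under 1 or more alternatives. Without ZT19 the differences of tim, vri, per and Clk were -0.46, -0.24, 0.15 and 1.02.

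Clk ran opposite to these, from 24.7 at ZT3 to 10.6 at ZT11, with 6.5, 9.3 and 8.4 normalised reads in the dark. All light values exceeded all dark values, but the log2 difference of 0.92 ± 0.65 did not pass (adjusted p = 0.66). The Clk values rest on 15, 10 and 7 reads in the light and 8, 12 and 12 in the dark, which overlap before scaling. Called genes higher in the light can overlap before scaling too, as the light columns were shallower. Reads of CG12990 were 41 to 55 in the light and 38 to 43 in the dark, and those of pAbp 257 to 327 and 241 to 339. The blue-light receptor gene cry was at 65.9, 82.1 and 75.6 in the light and at 31.0, 31.8 and 62.2 in the dark. It had the smallest p of the clock genes (0.89 ± 0.27, adjusted p = 0.11), and 0.74 without ZT19 (adjusted p = 0.42). The 10 clock kinases, phosphatases and light input genes had a median of 0.28 (0.42 without ZT19), with 8 positive and none called.

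Heat shock and chaperone genes, of interest at 29°C, showed no called gene among 21 tested. Their median was 0.22, and 0.24 without ZT19. In 5 of them every light value exceeded every dark value, against 7.67% of all genes, and in none did every dark value exceed every light value, against 11.5%. At 25°C and 18°C the medians were -0.07 and -0.04.

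The phase difference at 29°C was tested against that at the other temperatures in the same model. Against 25°C no gene passed, 0% of those tested, with 551 at an unadjusted p under 0.05, and edgeR called none either (572 at an unadjusted p under 0.05). Leaving out the 29°C ZT3 column gave 25 genes. The 25°C light phase includes the ZT7 column with its raised midgut and flight muscle markers. Against 18°C 3 genes passed, 0.0380% of those tested. CG40485 was between 111 and 168 normalised reads in all 18°C columns and between 104 and 139 at 25°C, so that the 29°C light columns, at 34.1 to 47.8, stood below all others. Its difference of differences against 18°C was -1.73 ± 0.28 (adjusted p = 0.014), and -1.69 without ZT19 (adjusted p = 0.040).

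For pAbp the 18°C values were 418, 376 and 345 normalised reads in the light and 350, 559 and 659 in the dark, where the phases overlapped (log2 difference -0.42, adjusted p = 0.67). The difference of differences was 1.42 ± 0.26 (adjusted p = 0.034), and 1.55 without ZT19 (adjusted p = 0.040). For up it was -1.001 ± 0.19 (adjusted p = 0.034), with 18°C values of 1478, 1355 and 1481 in the light and 1080, 1246 and 1053 in the dark. Without ZT19 up no longer passed and PAN3 did (2.35 ± 0.44, adjusted p = 0.045). The 18°C ZT19 and ZT23 columns held 784440 and 736538 reads on genes, the fewest of all columns, and were not thinned. The part of depth in the differences against 18°C was not tested. Leaving out single columns gave between 0 genes (without 29°C ZT7 or ZT23, or 18°C ZT11 or ZT23) and 50 genes (without 18°C ZT15). All 3 of the first calls were lost when columns were scaled to library size. The 15 genes higher in the light at 29°C were positive at 25°C in 15 cases and at 18°C in 3. The 67 genes higher in the dark were negative at 25°C in 44 cases and at 18°C in 34. Median differences of the 15 were 0.31 at 25°C and -0.11 at 18°C, and those of the 67 were -0.07 and -0.01. Over all genes tested the medians were -0.02 and 0.02, and the share of each sign was not counted.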

How the data were processed

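For 36 labelled libraries the deposited file lists normalised signal of 21081 transcripts, with 18 value columns that each stand for 1 temperature and time. The submitters' processing notes name dm3, Bowtie2, TopHat and Cufflinks without versions or roles. How the signal was scaled, whether strand or molecular identifiers were used, and how 2 libraries became 1 column are not given in the sources used here. Each deposited signal value was a whole multiple of 1 step per column (100% of values, largest departure 1.68e-05 reads), which gave whole reads. Intervals and floors of 3 reads cover counting error only.

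For each gene the transcript with the most reads was kept, leaving 14010 genes, of which 13635 had a symbol in the RefSeq gene list, used for names only. Coordinates are those of the table, counted from 1. Genes passed filterByExpr in edgeR 4.0.16 on the recovered reads. The main test, on log2(value + 1) with a pseudocount of 1, used lmFit and eBayes with a trend from limma 3.58.1 (R 4.3.3) over all 18 columns as groups of temperature and phase. Genes passed at a Benjamini-Hochberg adjusted p under 0.05. Differences are light minus dark on that scale, which understates changes of low genes. The edgeR quasi-likelihood test and DESeq2 1.42.0 were run on the recovered reads. The limma, edgeR and DESeq2 fits were also run on simulated reads with known changes, and the outcome is not given here. The simulation held no change within a phase and no single column with reads of other tissue. Tables were made in Python 3.11.15.

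Members and gene lists were chosen with earlier results of these data known. Lists for muscle contraction, the citric acid cycle, glycolysis, subunits with other symbols and the mitochondrial chromosome, as well as thinning, were added after seeing the data. Named were the core clock genes, per direction the 12 genes with the smallest p among those with a mean of at least 10 normalised reads and no overlap, 6 more without ZT19, up to 4 called genes per list, up to 3 per temperature difference and 3 per marker list. Other genes named passed the test and were named after their values were seen. Other settings were scaling, pseudocounts of 0.1 and 5, filters, a robust prior, the columns in the fit and leaving out each column.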

Additional observations from a re-analysis of the deposited data

Results flagged for a closer look

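Each of 39 quantities was checked at 29°C for a column far from the other 5, and 6 had one. The lists share some genes, and male abdominal reads at ZT19 were known beforehand. The count of 6 is therefore not set against chance. Detected genes numbered 10988 at ZT19 and 9262 to 9804 elsewhere. Its summed marker levels were 317 normalised reads for testis (4.54 to 17.0 in the others), 571 for accessory gland (160 to 265), 503 for ejaculatory duct and bulb (0 to 3.50) and 2572 for midgut (13.3 to 37.6). The spermatheca markers were at 0.817 normalised reads at ZT15, which is 1 read, and at 0 in the others.

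The light minus dark difference differed between 29°C and 18°C for 3 genes in limma. The difference of differences was -1.73 for CG40485, 1.42 for pAbp and -1.001 for up.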

How the results depend on the processing

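With all 6 columns, 82 genes passed. The count was 30 with the 29°C columns alone in the fit, 54 in edgeR, 137 in DESeq2, 15 when the ZT19 columns of every temperature were dropped and 9 without the 29°C one. Leaving out each other 29°C column gave 7 to 83. Without ZT19, 9 genes passed. This became 0 with the 29°C columns alone (651 at an unadjusted p under 0.05), 3 with no filter on low counts, 4 with library size scaling, 15 without all ZT19 columns, 17 with a robust prior, 19 after thinning and 76 in DESeq2. Leaving out a further column gave 0 to 55. The count of genes whose difference changed between 29°C and 25°C was 0 to 25, and between 29°C and 18°C 0 to 50, when single columns were left out. The latter was 14 without all ZT19 columns and 0 with library size scaling. The cause of these shifts was not tested, beyond the fewer columns in some fits. List medians near 0 changed sign under some settings: -0.04 to 0.13 for phototransduction, -0.05 to 0.11 for glycolysis, -0.12 to 0.16 for the mitochondrial chromosome and -0.11 to 0.12 for cytosolic ribosomal proteins. Among the single genes recomputed under every setting, sign changes were limited to clock genes that were not called. When single columns were left out of all 6, per ran from -0.25 (without ZT11; -0.054 without ZT23) to 0.74, vri from -0.89 to 0.069 (without ZT3; 0.048 without ZT15) and Pdp1 from -0.15 (without ZT11) to 0.63. With ZT19 also left out, per ran from -0.55 (without ZT23; -0.35 without ZT11) to 0.85, tim from -1.01 to 0.066 (without ZT15), vri from -1.14 to 0.65 (without ZT15; 0.17 without ZT3, and 0.17 after thinning) and Pdp1 from -0.17 (without ZT11; -0.11 without ZT23) to 0.61. Depth limits low genes most in the light columns, where 3 reads are worth 4.54 to 4.94 normalised reads. No paired analysis was possible because the columns carry no replicate numbers.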

Other observations

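Some lists that belong to no result above had no called member. Antimicrobial peptide genes had a median log2 difference of -0.43 at 29°C over 12 tested genes, with 8 negative, and 0.45 at 25°C. Without ZT19 the 29°C median was -0.83 over 14 tested genes. UDP-glycosyltransferase genes, which attach sugars to small molecules, had a median of -0.25 over 11 tested genes (-0.19 without ZT19). Of 51 tested cytochrome P450 genes, 10 had every dark value above every light value, against 11.5% of all genes, with a median of -0.14 (-0.19 without ZT19). Glutathione S-transferase genes had a median of 0.09 over 24 tested genes (0.05 without ZT19). The median of 33 proteasome genes was -0.07, close to the -0.06 of all genes tested, and -0.06 without ZT19.

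CG14221 had the largest fold among the genes higher in the dark. It was at 11.5, 7.75 and 7.56 normalised reads in the light and at 46.5, 55.0 and 61.5 in the dark, and its log2 differences were -2.49 at 29°C (adjusted p = 0.018 in limma, and -2.48 with 0.092 without ZT19), -1.64 at 25°C and -0.81 at 18°C. Its light values are low, as 3 reads are worth 4.54 to 4.94 normalised reads in those columns. CG14221 was singled out after its values were seen.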
